A study of Drosophila melanogaster with 6 samples.

Results

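Copia-class elements are one of the main branches of the long terminal repeat (LTR) retrotransposons of Drosophila melanogaster. The class was taken as every row of the deposited count table whose identifier carries the class label LTR/Copia, whatever its counts. That rule found 5 families, copia, 1731, Dm88, Xanthias and frogger, among 127 transposon families and 17760 rows in all.

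An LTR retrotransposon is copied through an RNA that a reverse transcriptase turns into new DNA. In Copia-class elements the integrase lies before the reverse transcriptase in the Pol polyprotein, the reverse of the order in the Gypsy class. They have no envelope gene, and their Gag proteins form particles. The flamenco (flam) locus gives rise to piRNAs, the small RNAs that guide Piwi against transposons in the somatic follicle cells of the ovary, and it is known above all for remnants of Gypsy-class elements. Elements active in the germ cells are restrained by other piRNA clusters, and the siRNA pathway is a further source of small RNAs against transposons in somatic cells.

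Polyadenylated RNA was sequenced from ovaries of females 3 to 6 days old in 6 libraries of 2 genotypes, with 3 libraries each. The homozygotes were flamDeltaProm/flamDeltaProm, with an allele named as lacking the flam promoter, and the controls were flamDeltaProm/FM7, with the same allele over the FM7 balancer of the X chromosome. Both genotypes carry the deletion, on 2 copies of X in homozygotes and on 1 in FM7 controls, and both are given as wild type on the other chromosomes. The titles call the controls WT, but their genotype field names FM7, which was followed. The traffic jam knockdown ovaries that the series describes were not analysed here. Nothing in the labels tells whether the 3 replicates were separate pools of flies. The p-values therefore describe the spread among these libraries, and that spread may be technical.

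Libraries held 22996267 to 23159557 counts in homozygotes and 19564819 to 23181058 in FM7 controls. No library was a copy of another, since between replicates the chi-square over all rows was 8.18 to 38.9 times its degrees of freedom. The RNA of flam itself, which checks the genotype, was at 0.507, 0.251 and 0.760 CPM (counts scaled to library size) in homozygotes 1 to 3, against 1.93, 1.97 and 1.92 CPM in FM7 controls 1 to 3. Its log2 fold change was -1.93 (SE 0.39, adjusted p = 0.0119 by edgeR's quasi-likelihood test), in the direction of the labels. flam is annotated at 21631891 to 21790731 of X, plus strand, in BDGP6.54. Positions here are of that assembly, and the build behind the counts may be another.

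Copia-class RNA was higher in homozygotes, and nearly all of it came from copia. The class made up 0.243% ± 0.0483 of all counts in homozygotes and 0.0796% ± 0.0277 in FM7 controls (SD, n = 3 each), a ratio of 3.06. It was 0.195%, 0.245% and 0.291% in homozygotes 1 to 3, against 0.0937%, 0.0973% and 0.0477% in FM7 controls 1 to 3. Every homozygous library was above every control, and the exact permutation test, two-sided, gave p = 0.1, the smallest that 3 against 3 samples can give. copia alone held 99.5% to 99.6% of the class's counts in homozygous libraries and 99.4% to 99.7% in FM7 controls. These are shares of counts and are not scaled by the length of each element.

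Of the 5 families, 4 passed the filter on low counts, and 3 of these (copia, Dm88 and Xanthias) rose at an adjusted p under 0.05. None fell by edgeR, at an unadjusted p under 0.05, by DESeq2 or by limma-voom. Over all 9229 rows tested, 12.0% rose and 7.71% fell, and over the 79 transposon families tested 40.5% rose. The median log2 fold change was 1.66 over the 4 Copia families, 0.65 over all 79 families and -0.01 over all rows. In all 4 tested families each homozygous library lay above each FM7 library, which also held for 21.8% of all tested rows. It held too for 43 of the 79 transposon families and for 26 of the 35 tested Gypsy families, so it was not particular to the Copia class. In the ranking of the 79 families by log2 fold change, Xanthias was at 18, Dm88 at 21, copia at 23 and 1731 at 31, and 16 of the 17 families above Xanthias were of the Gypsy class.

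**Figure D1:**
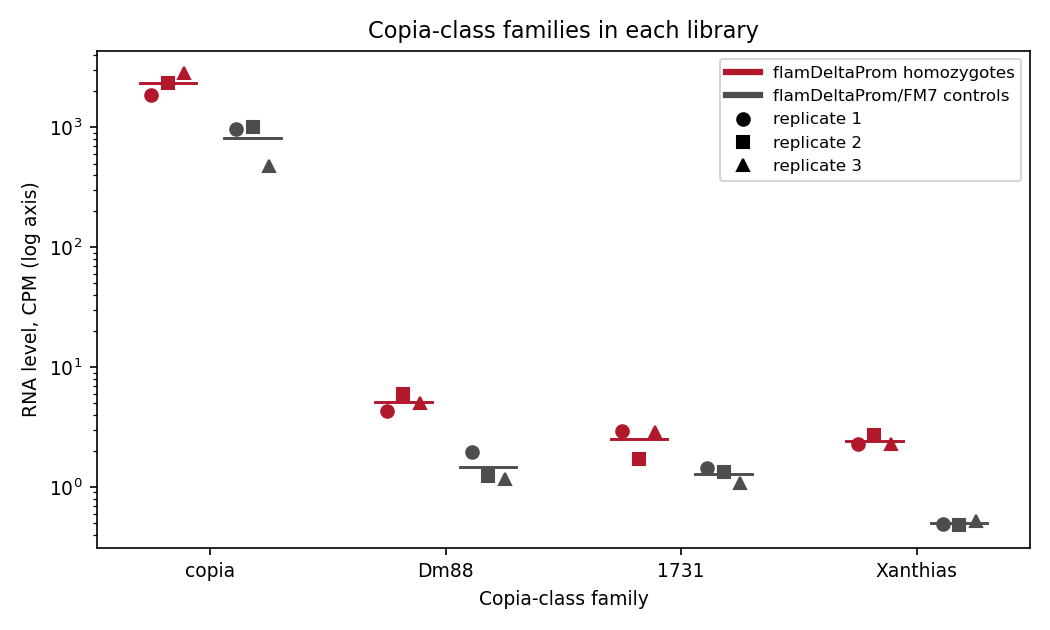
RNA level of the 4 tested Copia-class families in each library, in CPM on a log axis, with homozygotes in red and FM7 controls in grey. Marker shapes give the replicate and bars the mean of 3 libraries. In each family the 3 homozygous libraries lie above the 3 FM7 libraries, by the widest gap in Xanthias and the narrowest in 1731.

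copia, the element that gives the class its name, is a family of mostly full-length copies whose spliced RNA encodes Gag and whose unspliced RNA encodes Gag and Pol. It had 44514, 56415 and 67014 counts in homozygotes 1 to 3, against 21630, 18982 and 10190 in FM7 controls 1 to 3. On the scaled level these were 1882, 2360.3 and 2830.1 CPM in homozygotes and 969, 1011 and 478 CPM in FM7 controls. The groups did not overlap, but the lowest homozygote was 1.86 times the highest control while the controls themselves ranged over 2.12-fold, with FM7 replicate 3 well below the other two.

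The mean of copia was 2357 ± 474 CPM in homozygotes and 819 ± 297 CPM in FM7 controls (SD, n = 3). The fitted fold was 2.88 (95% interval 1.62 to 5.10), which on the log2 scale is 1.52 (SE 0.33, adjusted p = 0.0317). Leaving out 1 library ended the call in 4 cases, homozygous replicates 2 and 3 and FM7 replicates 1 and 2, at adjusted p from 0.0583 to 0.0961, and without the filter on low counts it was 0.0762. It was kept without FM7 replicate 3, the low control, where the log2 fold change was 1.25 and the adjusted p 0.0206. DESeq2 gave an adjusted p of 1.5e-04 on all libraries.

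The spread of copia between control libraries was wide beside that of other abundant rows, nearly all of them genes. Of 2227 rows with a mean of at least 100 CPM in FM7 controls, 6 (0.269%), copia included, had a ratio of highest to lowest control as large as copia's 2.12, and the median ratio was 1.11. Among homozygous libraries copia's ratio was 1.50, and 1.84% of the same rows reached it, with a median of 1.08. Of the 2227 rows 2 were transposon families, copia included. The Gypsy-class family springer, at 1428 CPM in homozygotes and 55.65 CPM in FM7 controls, was not among them. Between FM7 replicates 1 and 2 the chi-square over Copia families was 4.75 times its degrees of freedom, whereas between either of them and FM7 replicate 3 it was 828 or 889.

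Xanthias showed the largest fold of the class at a very low level. It had 54, 65 and 54 counts in homozygotes 1 to 3, against 11, 9 and 11 in FM7 controls 1 to 3. That is 2.28, 2.72 and 2.28 CPM in homozygotes, against 0.493, 0.479 and 0.516 CPM in FM7 controls. Values within each group were close together, and the lowest homozygote was 4.42 times the highest control. The fold was 4.85 (95% interval 3.14 to 7.49), or 2.28 on the log2 scale (SE 0.28, adjusted p = 0.00169). It was called in all 13 alternative fits, with a log2 fold change from 2.19 to 2.36.

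Dm88 was intermediate. It had 102, 142 and 119 counts in homozygotes 1 to 3, against 44, 23 and 25 in FM7 controls 1 to 3, or 4.31, 5.94 and 5.03 CPM against 1.97, 1.22 and 1.17 CPM. The highest control, FM7 replicate 1, was still below the lowest homozygote by a factor of 2.19. The fold was 3.48 (95% interval 2.23 to 5.42), or 1.80 on the log2 scale (SE 0.28, adjusted p = 0.00483). All 13 alternative fits called it, with a log2 fold change from 1.66 to 2.08. FM7 replicate 3 was the lowest control for Dm88 as for copia, but FM7 replicate 2 lay beside it for Dm88 and was the highest control for copia.

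1731, whose RNA is known from cultured fly cells to drop on treatment with ecdysone, did not pass the threshold. It had 69, 41 and 68 counts in homozygotes 1 to 3, against 32, 25 and 23 in FM7 controls 1 to 3, or 2.92, 1.71 and 2.87 CPM against 1.43, 1.33 and 1.08 CPM. Homozygous replicate 2 was close to the controls, at 1.20 times the highest of them. The log2 fold change was 0.96 (SE 0.30, adjusted p = 0.056), a fold of 1.95 with a 95% interval of 1.21 to 3.15. Without homozygous replicate 2 it was called, with a log2 fold change of 1.17 and an adjusted p of 0.0452, and the other fits without 1 library gave adjusted p up to 0.186. The interval includes copia's fold of 2.88.

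frogger was almost undetected. It had 0, 1 and 0 counts in homozygotes 1 to 3, against 3, 1 and 1 in FM7 controls 1 to 3, and it did not pass the filter. The ratio of summed counts, scaled by library totals, was 0.186 with an exact 95% interval of 0.00392 to 1.66, so no difference was detectable at this depth. A count of 0 allows up to 3 counts, or 0.127 CPM, in homozygous replicates 1 and 3. This exact interval and this limit cover counting error only and leave out differences between libraries. PCR copies of a molecule, if counted as separate reads, would make them too narrow.

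Whether the families differed in their response was asked with the log2 ratio of their counts within each library, which does not depend on library scaling. With 6 pairs of families and 3 libraries a group, the exact permutation test, two-sided, cannot go below p = 0.1, and no pair was below an adjusted p of 0.2. The log2 ratio of Xanthias to 1731 was -0.01 ± 0.58 in homozygotes and -1.32 ± 0.25 in FM7 controls (SD, n = 3), a difference of 1.31, and the groups did not overlap. For Dm88 to 1731 the difference was 0.90 and for Xanthias to Dm88 0.41, again without overlap. The first of these was 0.53 without homozygous replicate 2. The separation of Xanthias to Dm88 was narrow, with the lowest homozygote at -1.13 and the highest control at -1.15, and the difference was 0.17 without FM7 replicate 1 and 0.32 with a pseudocount of 2 (exact permutation p = 0.3). Between Xanthias and copia it was 0.65, between copia and 1731 0.66 and between Dm88 and copia 0.23, all with overlapping groups. Leaving out 1 library gave 0.44 to 1.02 for Xanthias and copia and 0.40 to 0.95 for copia and 1731. The difference between Dm88 and copia became -0.06 without FM7 replicate 2, so the sign of that difference rested on 1 library.

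Processing choices moved the Copia fold changes little, whereas the calls of copia and 1731 lay near the threshold. Over the 13 alternative fits copia ranged from 1.25 to 1.70 and was called in 7, and 1731 ranged from 0.84 to 1.17 and was called in 2, those with library sizes alone and without homozygous replicate 2. The number of Copia families called higher was 2 to 4.

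**Figure D2:**
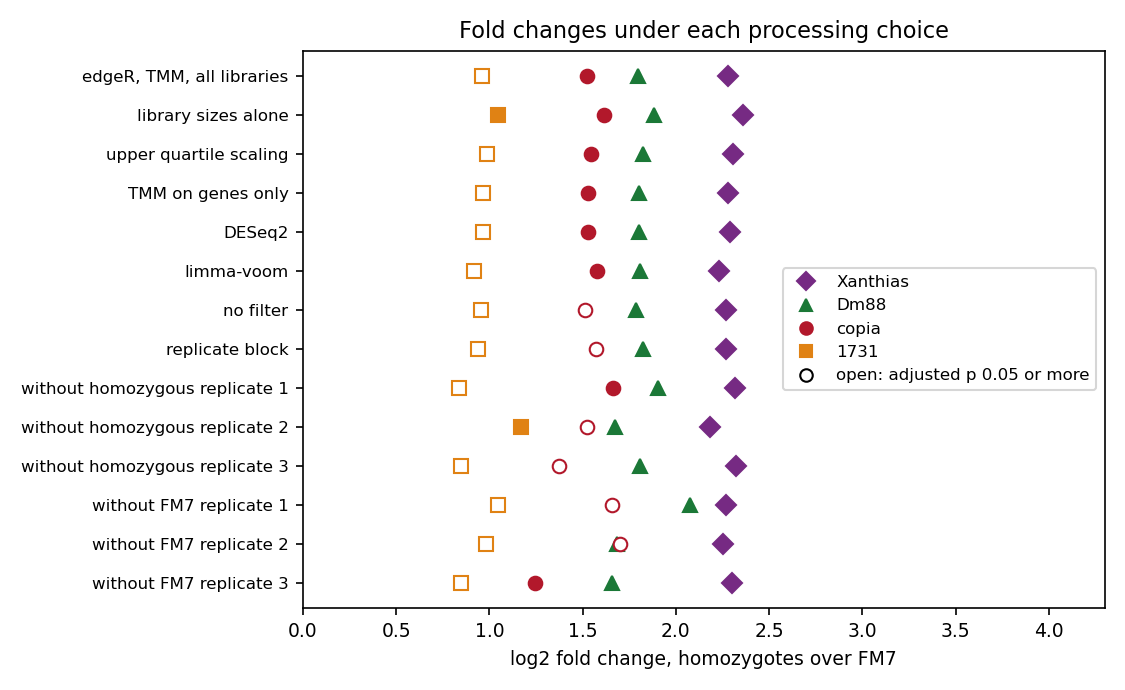
Log2 fold change of homozygotes over FM7 controls for the 4 tested Copia-class families under each processing choice, from the reported fit at the top to the fits without 1 library at the bottom. Filled markers have an adjusted p under 0.05 and open markers do not. Xanthias and Dm88 are filled throughout, copia in the reported fit and 7 of 13 alternatives, and 1731 in 2.

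Although Copia RNA was higher in homozygotes, it was a smaller part of their transposon RNA. Copia families made up 26.6% ± 4.81 of transposon counts in homozygotes and 48.8% ± 9.08 in FM7 controls (SD, n = 3 each). The libraries ranged from 22.4% to 31.8% in homozygotes and from 38.4% to 54.9% in FM7 controls, and the exact permutation test, two-sided, again gave p = 0.1. copia was the transposon family with the highest CPM in both genotypes. It also had the largest gain of any family, 1538 CPM, ahead of the Gypsy-class family springer with 1373 CPM. These gains differ by less than copia's SD among homozygotes, 474 CPM (n = 3), and their order was not tested. Of the net gain in transposon counts, 21.5% fell on the Copia class and 78.4% on the Gypsy class, whose share of all counts was 22.7 times that of the controls.

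**Figure D3:**
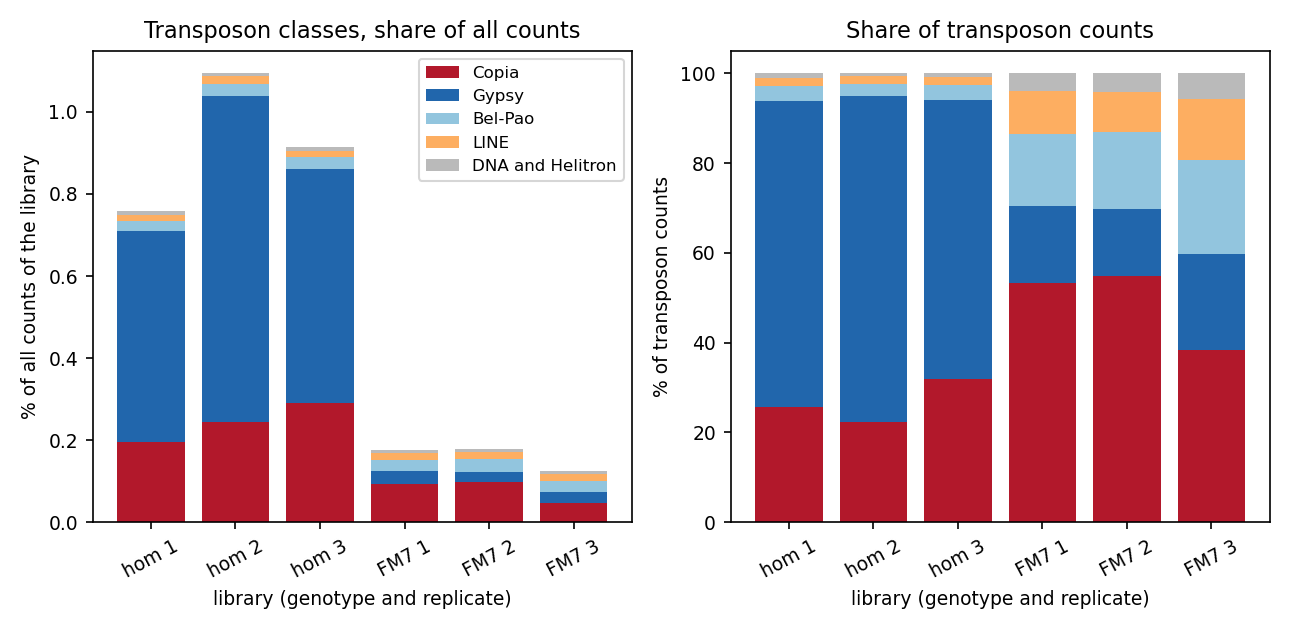
Counts on each transposon class in the 6 libraries, as a percentage of all counts of the library on the left and of its transposon counts on the right, with homozygotes 1 to 3 before FM7 controls 1 to 3. The Copia part, at the base of each bar, is taller in homozygotes on the left and shorter on the right.

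The difference from the other LTR classes was measured within libraries too. The log2 ratio of Copia to Gypsy counts was -1.41, -1.70 and -0.97 in homozygotes 1 to 3, against 1.64, 1.89 and 0.85 in FM7 controls 1 to 3. Gypsy counts exceeded Copia counts in each homozygote and were below them in each control. The difference of means was -2.82, with an exact permutation p of 0.1, two-sided. Against the Bel-Pao class, a comparison added after the counts were seen, Copia moved the other way. Its log2 ratio to Bel-Pao counts was 3.10 ± 0.17 in homozygotes and 1.42 ± 0.48 in FM7 controls (SD, n = 3), a difference of 1.68 with an exact permutation p of 0.1, two-sided, and Bel-Pao's share of all counts was 0.989 times that of the controls. Adjusted over these 2 ratios, both p-values remain 0.1. Across classes, 23 of 35 tested Gypsy families rose and 1 fell, and 2 of 7 Bel-Pao families rose and 2 fell. Of 22 LINE families 3 rose and 0 fell, and of 11 families of DNA transposons and Helitrons 1 rose and 0 fell. Over all rows 12.0% rose and 7.71% fell, so the LINE and DNA counts were near the share of all rows.

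**Figure D4:**
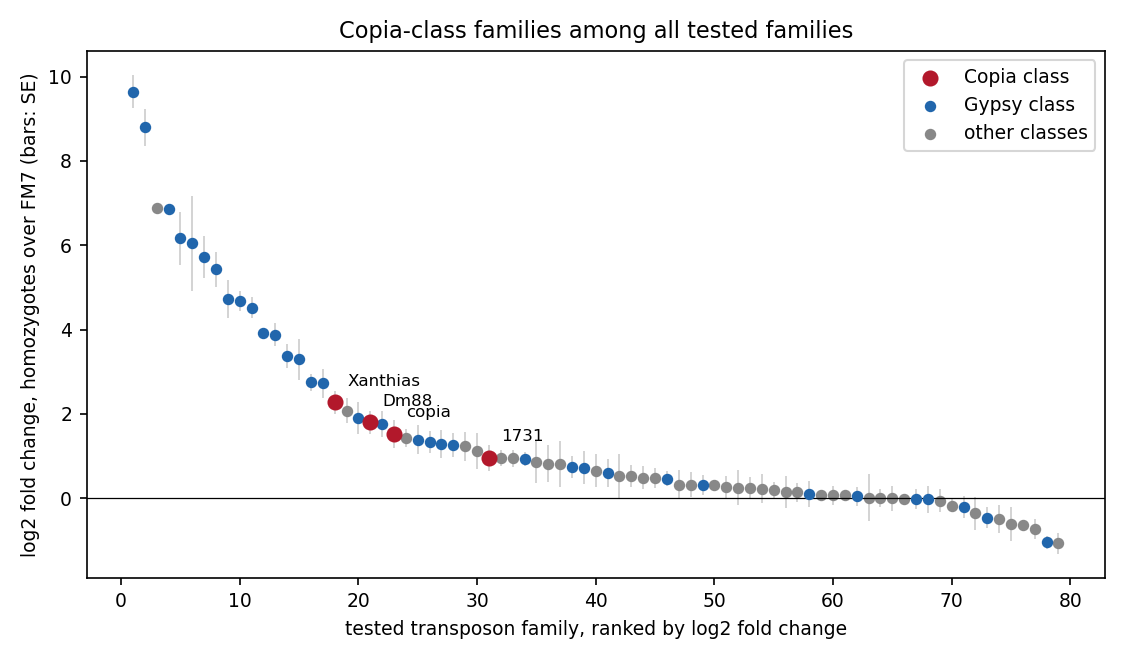
Log2 fold change of homozygotes over FM7 controls for the 79 tested transposon families, in falling order, with bars of 1 standard error (none for a family without control counts). Copia-class families are named and lie at ranks 18, 21, 23 and 31, below most strongly changed Gypsy-class families.

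Other features were compared with copia by the root mean square distance between log2 CPM profiles, each centred over the 6 libraries, as a description of likeness only. The closest transposon families were invader4 (distance 0.28), the LINE element Ivk (0.29), Dm88 (0.35), the Bel-Pao family rooA (0.37) and the Gypsy-class family 17.6 (0.42). Xanthias was at rank 7 and 1731 at rank 11 of 78 families. The closest genes were 7SLRNA:CR32864, a copy of the RNA of the signal recognition particle (distance 0.07, log2 fold change 1.69), CG31445 (0.11, 1.67), CG17224 (0.15, 1.36), Drat (0.15, 1.59) and net, a gene for a basic helix-loop-helix factor (0.15, 1.72). Of the 5 families, rooA and 17.6 were called in 1 and 2 of 6 fits without 1 library, and of the genes net was called in 1, CG31445 in 3, Drat in 4 and 7SLRNA:CR32864 in 5. Of these genes Drat was the most abundant, at 81.4, 94.2 and 92.1 CPM in homozygotes 1 to 3, against 37.2, 33.2 and 18.8 CPM in FM7 controls 1 to 3, so FM7 replicate 3 was low here as for copia. In FM7 replicate 3 net was at 0.094 CPM, CG31445 at 0.234 and 7SLRNA:CR32864 at 0.375, so their distances rest on few counts. The families invader4, Ivk and rooA were at 0.469, 0.516 and 0.422 CPM in that library. The log2 CPM carried a prior count of 2, which shrinks differences in such low rows.

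The reference annotation gives the number and size of Copia-class insertions in the sequenced strain, which need not be those of these stocks. copia had 39 insertions, of which 31 were at least 4500 bp long, with a median of 5145 bp. Dm88 had 33, of which 3 reached that length, and a median of 1259 bp, so most of its copies were fragments. 1731 had 16, of which 5 reached it. Many of the Dm88 insertions lay together on the minus strand of 3R, between 12468478 and 12500980 in BDGP6.54. Xanthias had a single insertion of 4533 bp on the plus strand of 2R, from 6398094 to 6402626 in BDGP6.54, and frogger had 2 of 1489 and 2483 bp. The span of the Xanthias insertion also holds the frogger insertion of 1489 bp and a Dm88 insertion of 1342 bp. How reads from that span were assigned to the families is not given. Of 47 transposon insertions that overlapped flam, 0 were of the Copia class.

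**Figure D5:**
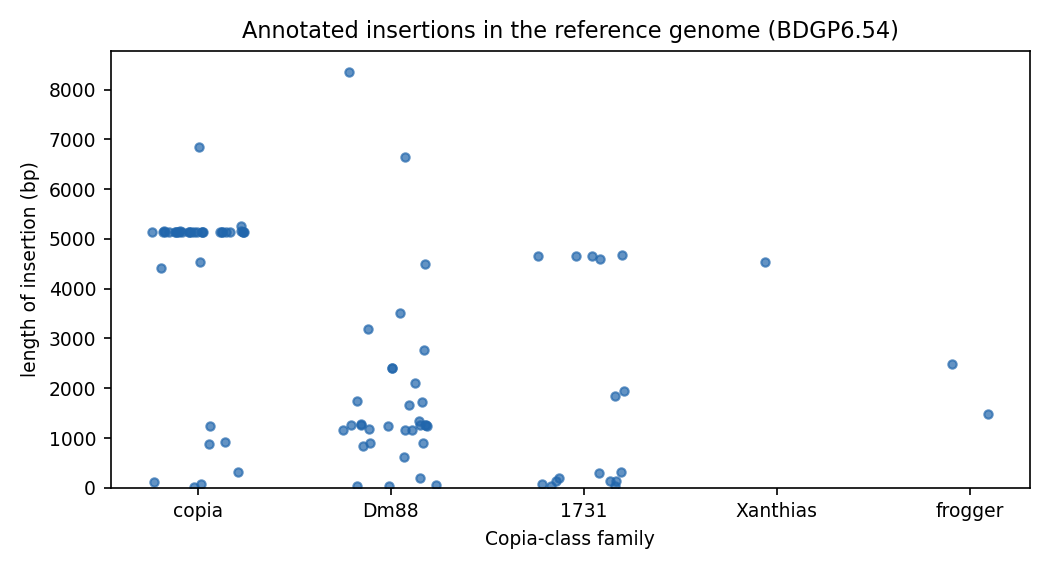
Length in base pairs of each annotated insertion of the 5 Copia-class families in the reference genome, 1 point per insertion, spread sideways for legibility. Copies of copia gather near 5145 bp, those of Dm88 are mostly short, and Xanthias has 1 copy, whose span also holds annotated insertions of Dm88 and frogger.

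Of the copia insertions of the reference, 17 lay within the span of a gene, and these spans belonged to 18 annotated genes. CG43954 and Lasp, which overlap at one insertion, had identical counts and were counted once, leaving 15 tested rows. Of these, 3 were higher and 2 lower, with a median log2 fold change of 0.03, beside 12.0% higher and 7.71% lower of all rows. The higher ones were sls, the gene for a titin-like muscle protein (log2 fold change 1.06, adjusted p = 0.0303), the splicing factor gene mbl (0.78, adjusted p = 0.00508) and CG11400 (1.66, adjusted p = 0.00743), whose insertion is a fragment of 80 bp. The lower ones were the adenylyl cyclase gene rut (-0.68, adjusted p = 0.0191) and Nipped-A (-0.17, adjusted p = 0.0331). The calls of sls and Nipped-A were each lost in 5 of the 6 fits without 1 library and that of rut without FM7 replicate 3. sls is itself one of the muscle sheath markers, of which 6 of 8 were higher. Of the host genes of Dm88, 2 of 4 were tested, and lncRNA:alphagamma-element:CR32865, which holds a Dm88 fragment of 612 bp on its own strand, was higher at 2.26 CPM in homozygotes and 0.210 CPM in FM7 controls (log2 fold change 3.40, SE 0.43, adjusted p = 0.00196). This fragment is 1 of the many Dm88 insertions that lie together on 3R. The part of that stretch in the Dm88 counts was not tested. Of the host genes of 1731, 4 of 7 were tested and 1, simj, was higher (0.22, adjusted p = 0.0479), a call that was kept in 2 of 6 fits without 1 library.

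The genotypes differ in more than the dose of the deletion. The FM7 balancer is a whole X chromosome with its own history, and the number of Copia insertions it carries is not given, so an effect of the deletion and one of the insertions on the X chromosomes cannot be told apart in this design. As background, many FM7 chromosomes carry white-apricot, an allele of white (w) made by a copia insertion, but the labels do not say which FM7 was used. w (X, 2790599 to 2796466, minus strand) was at 0.888, 1.38 and 0.929 CPM in homozygotes 1 to 3, against 30.0, 29.2 and 25.2 CPM in FM7 controls 1 to 3, which on the log2 scale is -4.72 (SE 0.17, adjusted p = 2.3e-06). The part of any such allele in the copia counts was not tested.

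Counts of called genes in the lists of small RNA pathways that act on transposons stand beside 12.0% higher and 7.71% lower over all rows. Of 14 tested genes of the Yb body and of primary piRNA biogenesis, 0 were called by edgeR in either direction, 0 had an unadjusted p under 0.05, and DESeq2 and limma-voom called 0. Their summed level was 1063 to 1081 CPM in homozygotes and 1057 to 1090.5 CPM in FM7 controls. Of 15 genes of nuclear silencing by Piwi, 0 were higher and 2 lower, nxf2 (-0.33, adjusted p = 0.00531), whose protein acts with Panoramix in transcriptional silencing, and mael (-0.21, adjusted p = 0.0492). At an unadjusted p under 0.05, 1 of these genes was higher and 6 lower. Over the 13 alternatives 1 to 3 were called lower and 0 to 1 higher. piwi itself was at 234, 259 and 249 CPM in homozygotes 1 to 3, against 227, 220.3 and 225 CPM in FM7 controls 1 to 3 (log2 fold change 0.14, adjusted p = 0.098). Among 13 tested genes of germline piRNA clusters and of the ping-pong cycle, 4 were higher and 1 lower. The higher ones included qin (0.43, adjusted p = 0.00641), krimp (0.28, adjusted p = 0.0114) and aub (0.22, adjusted p = 0.0475), all of the nuage, and moon, whose protein starts transcription at germline clusters, was lower (-0.65, adjusted p = 0.00102). The calls of mael and aub were lost in 5 and 6 of the 6 fits without 1 library and that of krimp without homozygous replicate 3.

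The siRNA pathway, which cuts double-stranded RNA of transposons, was represented by 5 genes. By edgeR 0 were called, 1 was higher at an unadjusted p under 0.05, and DESeq2 and limma-voom called 0; with library sizes alone 1 was called higher. AGO2, the slicer of the pathway, averaged 308 ± 18.0 CPM in homozygotes and 327 ± 8.24 CPM in FM7 controls (SD, n = 3), a log2 fold change of -0.09 (adjusted p = 0.334 by edgeR). For Dcr-2, which cuts the double-stranded RNA, the log2 fold change was 0.14 (adjusted p = 0.11).

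Ecdysone is of interest here because of its known link to 1731. Of 11 genes of the ecdysone receptor and response, 0 were higher and 4 lower by edgeR, beside 12.0% higher and 7.71% lower over all rows; 0 were higher at an unadjusted p under 0.05, by DESeq2 or by limma-voom, and 1 was higher without homozygous replicate 1. The lower ones included the early gene br (-0.67, adjusted p = 0.00249), the nuclear receptor gene Hr3 (-1.07, adjusted p = 0.0165) and the ETS factor gene Eip74EF (-0.61, adjusted p = 0.0226). The number lower was 2 without FM7 replicate 3 or any 1 of the homozygous libraries. The receptor gene EcR averaged 62.3 ± 1.72 CPM in homozygotes and 61.6 ± 1.77 CPM in FM7 controls (SD, n = 3), a log2 fold change of 0.02 (adjusted p = 0.84). br is also among the follicle cell markers, and the part of ecdysone in the 1731 counts was not tested.

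Markers of some cell types also differed between genotypes, and in whole ovaries fewer cells of a type and less RNA per cell cannot be told apart. Over all rows 12.0% were higher and 7.71% lower. Follicle cell markers had 2 of 12 higher and 8 lower, with a summed level of 6044 to 8255 CPM in homozygotes and 13976 to 16085 CPM in FM7 controls. The lower ones included tj (-0.87), Vm34Ca (-1.21) and Yp2 (-1.05), and cas (2.27) and Fas3 (adjusted p = 0.00348) were higher. Germline markers had 1 of 9 higher, aub, near the share of all rows. Their summed level was 3091 to 3456 CPM in homozygotes and 2975 to 3327 CPM in FM7 controls. Over the 13 alternatives 0 to 4 germline markers were higher and 0 to 1 lower, and aub was called in 0 of 6 fits without 1 library. Haemocyte markers had 6 of 9 tested higher and 1 lower, with a median log2 fold change of 3.14 and a summed level of 681 to 782 CPM in homozygotes and 644 to 962 CPM in FM7 controls. The ranges of the summed level overlapped. PPO1 (3.11), PPO2 (3.23) and Pxn (3.14) had the smallest adjusted p of the higher ones, srp, a haemocyte transcription factor gene, was lower (-1.21), and 3 were lower without FM7 replicate 3. Muscle sheath markers had 6 of 8 higher, with a summed level of 342 to 538 CPM in homozygotes and 244 to 297 CPM in FM7 controls, led by Mp20 (0.95), Prm (0.61) and bt (0.91). That count was 0 without FM7 replicate 1 or 3, 1 without homozygous replicate 2 and 3 without homozygous replicate 3. Fat body markers had 2 of 4 tested higher, fit (5.24) and FASN1 (0.64), with a summed level of 421 to 560 CPM in homozygotes and 287 to 313 CPM in FM7 controls. That count was 1 without FM7 replicate 1 or 3, where the call of FASN1 was lost, and 3 without homozygous replicate 2. No marker of these lists was at 0 in all libraries, and the part of these differences in the Copia values was not tested. Overlapping genes leave some counts uncertain, since the strand setting of the counting is not given. Of the genes named here, qin, Fas3, Hr3, EcR, Pxn, srp, fit and mbl overlap another annotated gene on the same strand, and nxf2, mael, aub, moon, piwi, w, sls, AGO2, Dcr-2, PPO1, br and rut overlap one on the other strand only.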

How the data were processed

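The deposited table holds raw counts per gene and per transposon family in 6 ovarian libraries, made by the authors from strand-specific mRNA libraries, per the labels' protocols. The submitters' processing notes name STAR 2.7.8a, featureCounts 2.0.1 and DESeq2 1.30.1, with no roles. For the genome build, the transposon annotation and reads that map to several copies, the processing was not given in the sources used; family counts may depend on how such reads were assigned.

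All rows were fitted together with edgeR 4.0.16 in R 4.3.3 (TMM scaling, filterByExpr, robust quasi-likelihood test), and p-values were adjusted by Benjamini-Hochberg over all 9229 rows tested, with a threshold of 0.05. CPM used TMM-scaled library sizes. Within-library ratios used a pseudocount of 0.5 and exact permutation tests over samples. Alternatives were other scalings, DESeq2 1.42.0, limma-voom (limma 3.58.1), no filter, a replicate block and leaving out each library. The procedure was tested on simulated data. Gene symbols were matched for 17598 of 17633 gene identifiers, and 106 of 107 list entries were found. Insertions came from Ensembl release 115.

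Named genes were every Copia row, flam, DIP1, tj, piwi and w, up to 3 called members of each list in each direction with the smallest adjusted p, the 5 families and 5 genes nearest to copia, and the family of another class with the largest gain in CPM. The choice of AGO2, Dcr-2, EcR and the host genes of insertions came after their values had been seen. The members and lists were chosen with earlier results of these data known. DIP1, which neighbours flam, had a log2 fold change of -0.40 (adjusted p = 0.0472), called in 2 of 6 fits without 1 library. It formed a list with flam and tj, of which 3 of 3 were lower, beside 7.71% lower over all rows. That count was 2 in 8 of the 13 alternatives.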

Additional observations from a re-analysis of the deposited data

How the results depend on the processing

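Xanthias and Dm88 kept their direction and their call in all 13 alternatives. The log2 fold change of copia was 1.52 as reported and lost its call without the filter on low counts (1.51, adjusted p = 0.0762) and with the replicate block (1.57, adjusted p = 0.0984), and it ranged from 1.25 to 1.70 when 1 library was left out. That of 1731 passed the threshold with library sizes alone (1.04, adjusted p = 0.0398) and ranged from 0.84 to 1.17 when 1 library was left out. The cause was not tested. The difference in the Copia share was positive on all counts and -22.2 percentage points on transposon counts alone, where the Gypsy counts are in the denominator. The difference between Dm88 and copia ranged from -0.057 to 0.45 when 1 library was left out, the lowest without FM7 replicate 2. Samples with the same replicate number did not deviate together (correlations -0.30, -0.07 and -0.04). With 3 libraries a group such correlations cannot decide whether the numbers mark a shared preparation. The replicate block moved the calls over all rows to 1049, against 1815 without it. Without homozygous replicate 3 there were 775 calls, without FM7 replicate 1 860 and without homozygous replicate 2 1063. With library sizes alone the median of all rows shifted to 0.07. Among the gene lists, the counts that moved most were the higher muscle sheath genes (0 to 8), higher germline markers (0 to 4) and higher germline piRNA genes (1 to 4). With 3 libraries a group no permutation test could pass the threshold, and depth limits frogger.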
